A study of Mus musculus with 12 samples.

Results

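Imprinted growth genes were followed in mouse brain tumours driven by YAP1 fusion proteins and in normal cortex. The genes are H19, Igf2, Dlk1, Meg3, Rian, Peg3, Peg10, Plagl1, Cdkn1c and Mest, taken by their symbols, and the count tables held all 10 of them among 24421 gene symbols. All 10 passed the filter on low counts, which kept 16364 genes. H19, at 6 to 10 reads in each naive library, passed through its level in the tumours. An imprinted gene is transcribed mainly from the copy inherited from one parent, because the other copy carries a methylation mark or another silencing mark set in the germ line. Such genes are grouped in clusters and many of them set the growth of the fetus and placenta. In the brain several stay active after birth, mainly in neurons, while others are switched off in most tissues. In most mouse tissues H19, Meg3, Rian and Cdkn1c are expressed from the maternal copy, and Igf2, Dlk1, Peg3, Peg10, Plagl1 and Mest from the paternal copy. This need not hold in every cell type of the brain. Counts per gene do not show from which copy a read came.

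RNA was sequenced from 12 samples, 3 per group. The tumour groups carried the fusion YAP1-MAMLD1-dR3R1, the fusion YAP1-FAM118B or the fusion YAP1-TFE3, each delivered into the brain by an RCAS virus, an avian retroviral vector, and sampled as whole tumour. The naive group was normal cortex of animals without injection. YAP1 is a co-activator of transcription held back by Hippo signalling, and it reaches DNA through TEAD factors. The sources used here do not give the strain, age or further alleles of the hosts, or the cells that took up the virus. One label field calls the naive tissue a brain tumour, while its source is given as normal cortex. Whether each replicate library stems from a different animal is not stated either, so the p-values measure the spread between these samples, which may be technical in part. The sex-linked genes given below differed within the naive, YAP1-MAMLD1-dR3R1 and YAP1-FAM118B groups, so libraries there did not all come from the same animal.

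Libraries held 19850220 to 24760814 counted reads, and 3 reads corresponded to 0.121 to 0.151 CPM in a library, a limit that covers counting error only. CPM is the read count relative to the library total after TMM scaling. Neuron markers (10 genes) summed to 541 to 1694 CPM in YAP1-MAMLD1-dR3R1, 5198 to 7335 in YAP1-FAM118B, 104 to 1149 in YAP1-TFE3 and 8326 to 12638 in naive libraries. Choroid plexus markers (8 genes) differed within the groups, and reached 2337 CPM in YAP1-MAMLD1-dR3R1 replicate 1, 1019 in YAP1-TFE3 replicate 1 and 1729 in naive replicate 3, against 5.06 to 239.9 in the other libraries. Hypothalamus markers (10 genes) summed to 3.03 to 32.3 CPM over the tumours and to 115 to 377 in the samples labelled cortex. Xist, transcribed in female cells, ran from 0 to 493 CPM in YAP1-MAMLD1-dR3R1, 0 to 320 in YAP1-FAM118B and 0.0411 to 305 in naive. The Y-linked Ddx3y ran from 0 to 85.9, 0 to 81.6 and 0.044 to 62.9 CPM in the same order. In YAP1-TFE3 Xist was at most 0.434 CPM and Ddx3y 68.9 to 87.8 CPM. By these genes YAP1-TFE3 was all male and the other groups were not, and the part of sex was not tested. YAP1-FAM118B replicate 2 and naive replicate 2 each held Xist together with Ddx3y. Calls that ended without that pair of libraries are named below.

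A few promoter windows are shown because YAP1 reaches DNA through TEAD factors and TFE3 binds the E-box. Each window shown held a match, and binding or a link to the changes in expression was not tested. Each window is the RefSeq sequence of GRCm38.p6 from 250 bases before to 50 bases after an annotated start, 5′ to 3′ on the strand of the gene. Capitals mark CATTCC (the core of the TEAD motif), CACGTG (the E-box) and GGGGCCCC (a motif of PLAGL1), searched on both strands. No matches overlapped. The promoter table gave windows for 7 of the 10 genes. The second window of Igf2 (chr7:142661222-142661521, minus strand) had CATTCC at −218 and −112 from the start. Peg3 (chr7:6730370-6730669, minus strand) had GGGGCCCC at −201 and CATTCC, read on the other strand, at −84. Plagl1 (chr10:13090582-13090881, plus strand) had CACGTG at −182.
Igf2: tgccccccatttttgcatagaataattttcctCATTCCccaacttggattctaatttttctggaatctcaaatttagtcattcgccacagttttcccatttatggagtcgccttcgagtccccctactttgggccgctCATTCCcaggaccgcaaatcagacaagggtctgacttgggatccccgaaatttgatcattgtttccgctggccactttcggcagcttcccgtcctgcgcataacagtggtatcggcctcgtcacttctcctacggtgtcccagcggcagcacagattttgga
Peg3: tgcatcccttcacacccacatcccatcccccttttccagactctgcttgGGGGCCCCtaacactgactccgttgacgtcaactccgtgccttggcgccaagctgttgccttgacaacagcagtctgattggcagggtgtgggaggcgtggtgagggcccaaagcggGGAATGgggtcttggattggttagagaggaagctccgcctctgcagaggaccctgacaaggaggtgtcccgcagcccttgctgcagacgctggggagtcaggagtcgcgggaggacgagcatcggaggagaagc
Plagl1: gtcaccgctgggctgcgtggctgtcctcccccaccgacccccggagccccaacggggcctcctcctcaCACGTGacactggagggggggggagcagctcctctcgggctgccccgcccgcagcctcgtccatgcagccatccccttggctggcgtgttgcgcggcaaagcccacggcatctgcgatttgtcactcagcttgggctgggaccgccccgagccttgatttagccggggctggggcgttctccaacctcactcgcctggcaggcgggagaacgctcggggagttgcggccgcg
CATTCC was found in 3 of the 7 genes with a window (Igf2, Peg3 and Rian), CACGTG in Plagl1 alone and GGGGCCCC in Peg3 alone. Over the 27025 genes of the table, 16.6% had CATTCC in a window, 8.09% CACGTG and 1.25% GGGGCCCC. By windows, CATTCC was in 5 of the 13 windows of these 7 genes (3 of the 4 windows of Igf2 among them), and CACGTG and GGGGCCCC in 1 each. Of all 32851 windows, 14.7% held CATTCC, 7.15% CACGTG and 1.08% GGGGCCCC. A match of letters describes the window and is not a bound site.

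**Figure D1:**
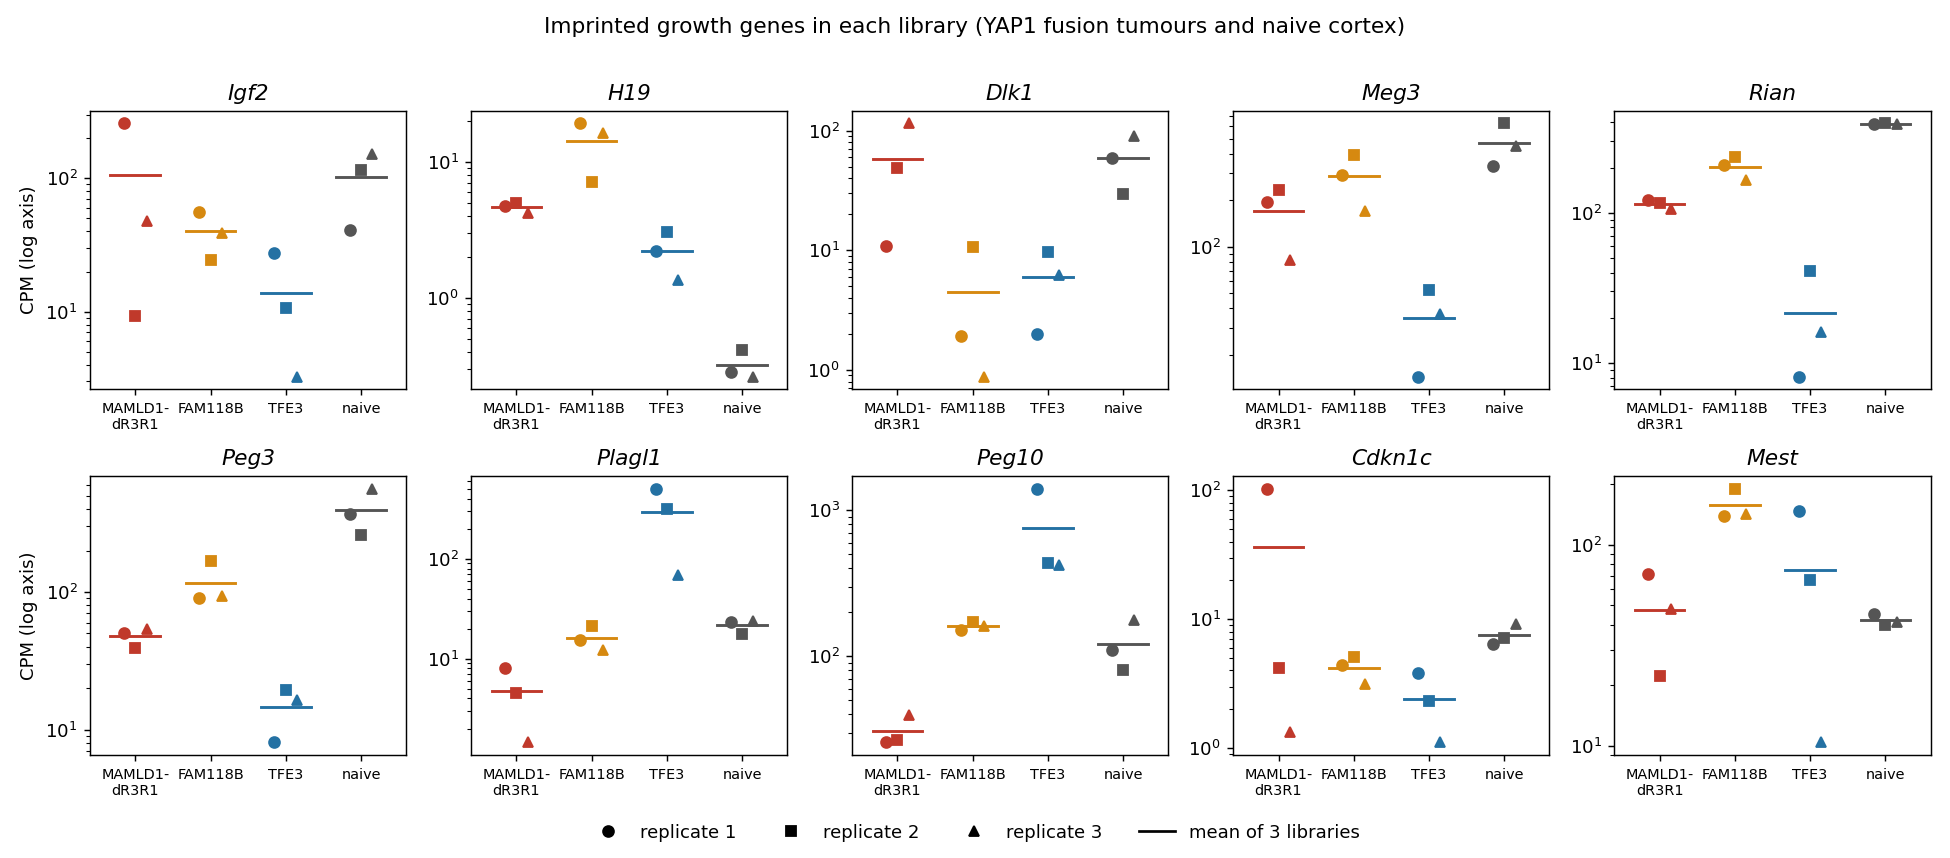
CPM of the 10 genes on log axes (vertical) in each library, by group (horizontal); symbols mark the replicates and bars the mean of 3 libraries. H19 was above naive in all 9 tumour libraries, Rian and Peg3 were below naive in all 9, and Plagl1 and Peg10 were above naive in the 3 YAP1-TFE3 libraries.

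The genes went in different directions, and more of them were lower than higher in each kind of tumour. Relative to naive cortex the edgeR test called 6 of the 10 in YAP1-MAMLD1-dR3R1 tumours, 1 higher and 5 lower, where 34.4% of all genes tested were called higher and 28.8% lower. In YAP1-FAM118B tumours it called 3, 1 higher and 2 lower, against 21.3% and 8.45% of all genes. The number of genes called lower in that comparison, 1382, depended on the libraries, and was 356 without YAP1-FAM118B replicate 3, 405 without its replicate 1 and 2916 in a fit of the 2 groups alone. In YAP1-TFE3 tumours it called 8, 3 higher and 5 lower, against 40.6% and 30.0% of all genes. The shares called in either direction over all genes were 63.2%, 29.7% and 70.6% in the same order, so that the number of the 10 genes called was near the background in each tumour type. The median log2 fold change of the 10 genes was −0.75, −0.78 and −2.28, and that of all genes 0.06, −0.05 and 0.23. The 3 comparisons share the naive libraries and are not independent of each other.

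**Figure D2:**
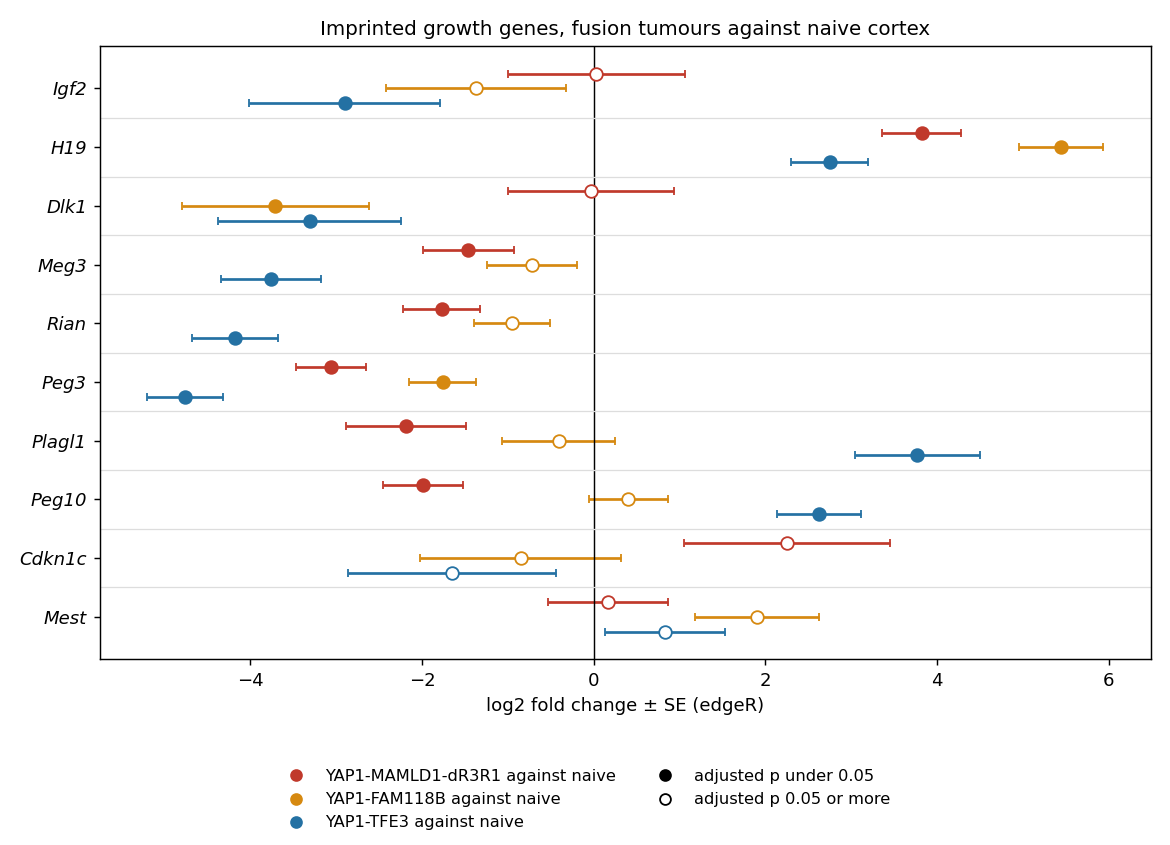
Log2 fold change against naive cortex (horizontal, ± SE from edgeR, 3 libraries per group) of each gene (vertical) in the 3 tumour types; filled points had an adjusted p under 0.05. H19 lies to the right of 0 in every tumour type and Peg3 to the left, whereas Plagl1 and Peg10 lie right of 0 in YAP1-TFE3 and left of 0 in YAP1-MAMLD1-dR3R1.

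H19 and Igf2 are neighbours on chromosome 7 (H19 at 142575530 to 142578146 and Igf2 at 142650768 to 142666816, GRCm38, minus strand) and share enhancers that an imprinting control region between them assigns to one gene on each parental copy. H19 is a noncoding RNA and the precursor of miR-675. Its level was 4.74, 4.98 and 4.21 CPM in YAP1-MAMLD1-dR3R1 replicates 1, 2 and 3, and 19.3, 7.10 and 16.4 CPM in YAP1-FAM118B. It was 2.22, 3.06 and 1.35 CPM in YAP1-TFE3, against 0.287, 0.419 and 0.264 CPM in naive. Every tumour library exceeded every naive library, and YAP1-FAM118B tumours lay above the other tumours without overlap. H19 rose by 3.82 ± 0.46, 5.44 ± 0.49 and 2.75 ± 0.45 on the log2 scale (SE) in YAP1-MAMLD1-dR3R1 tumours, YAP1-FAM118B tumours and YAP1-TFE3 tumours, with edgeR adjusted p of 8.28e-05, 4.99e-05 and 0.000376. It was the only one of the 10 called higher in all 3 tumour types. The levels stayed low, at 46 reads in YAP1-TFE3 replicate 1 and 469 in YAP1-FAM118B replicate 1, and the row for the hosted miRNA, Mir675, had no read in any library. By median sum, fibroblast and meninges markers (12 genes) put the groups in the same order as mean H19. In YAP1-FAM118B their sum (14212, 3697 and 18293 CPM) and H19 were both lowest in replicate 2. In YAP1-MAMLD1-dR3R1 the sum (5812, 4289.9 and 5113 CPM) was lowest where H19 was highest. The part of these cells in H19 was not tested.

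H19 also differed between the tumours. It was higher in YAP1-FAM118B than in YAP1-MAMLD1-dR3R1 by 1.62 ± 0.40 (edgeR adjusted p = 0.0193), a call that ended without YAP1-MAMLD1-dR3R1 replicate 2 or 3 or without YAP1-FAM118B replicate 1 (0.0591 to 0.0713). In YAP1-TFE3 it was lower than in YAP1-FAM118B, with −2.69 ± 0.42 (edgeR adjusted p = 0.000624). The difference between YAP1-TFE3 and YAP1-MAMLD1-dR3R1, −1.07 ± 0.40, missed the threshold (edgeR adjusted p = 0.0562), although the libraries did not overlap.

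Igf2 encodes a fetal growth factor that signals through the IGF1 receptor and is cleared by the receptor Igf2r. It had 258, 9.33 and 48.1 CPM in YAP1-MAMLD1-dR3R1, 56.2, 24.3 and 39.2 CPM in YAP1-FAM118B and 27.3, 10.6 and 3.25 CPM in YAP1-TFE3. Naive libraries had 40.6, 115 and 153 CPM. YAP1-MAMLD1-dR3R1 replicate 1 was the highest of all libraries, YAP1-TFE3 libraries were below all naive ones, and the other tumour groups overlapped naive. The decrease in YAP1-TFE3 was −2.90 ± 1.11 (edgeR adjusted p = 0.0377), while the changes of 0.03 ± 1.03 in YAP1-MAMLD1-dR3R1 and −1.37 ± 1.05 in YAP1-FAM118B were not called (edgeR adjusted p = 0.981 and 0.345). The YAP1-TFE3 call ended without YAP1-TFE3 replicate 2 or 3, YAP1-FAM118B replicate 3, or naive replicate 2 or 3 (0.0504 to 0.093). Without YAP1-FAM118B replicate 2 and naive replicate 2 together it had an edgeR adjusted p of 0.0868.

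Choroid plexus and meninges are known as main sites of Igf2 expression in the adult brain. Choroid plexus markers moved with Igf2 in some libraries and not in others. The 8 choroid plexus markers summed to 2337 CPM in YAP1-MAMLD1-dR3R1 replicate 1 and to 1729 CPM in naive replicate 3, the libraries with the highest Igf2 of their groups. They summed to 5.06 CPM in YAP1-TFE3 replicate 3, which had the lowest Igf2 of all. By contrast, naive replicate 2 had 115 CPM of Igf2 with a marker sum of 91.2 CPM and YAP1-TFE3 replicate 1 had 27.3 CPM with 1019. In YAP1-FAM118B the marker sums were 89.6, 119 and 133 CPM, beside 56.2, 24.3 and 39.2 CPM of Igf2. Fibroblast and meninges markers (12 genes) summed to 4289.9 to 5812 CPM in YAP1-MAMLD1-dR3R1, 3697 to 18293 in YAP1-FAM118B, 1079 to 2943 in YAP1-TFE3 and 596 to 1206 in naive. That sum was lowest in naive, where mean Igf2 was 103 CPM, but its markers went in different directions. In YAP1-MAMLD1-dR3R1 the edgeR test called 5 of the 12 higher and 1 lower than naive. The counts were 3 and 0 in YAP1-FAM118B and 2 and 2 in YAP1-TFE3. Over all genes 34.4%, 21.3% and 40.6% were called higher and 28.8%, 8.45% and 30.0% lower, in the same order. The marker Ptgds averaged 763 CPM in naive, and 100.4, 452 and 938 CPM in these tumours. The part of these cells in the levels of Igf2 was not tested. In bulk RNA, fewer cells of a type and less RNA per cell cannot be told apart. The ratio of H19 to Igf2 reads was 0.0184 to 0.534 in YAP1-MAMLD1-dR3R1, 0.292 to 0.418 in YAP1-FAM118B, 0.0813 to 0.414 in YAP1-TFE3 and 0.00173 to 0.00709 in naive libraries, higher in every tumour library than in every naive one.

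**Figure D3:**
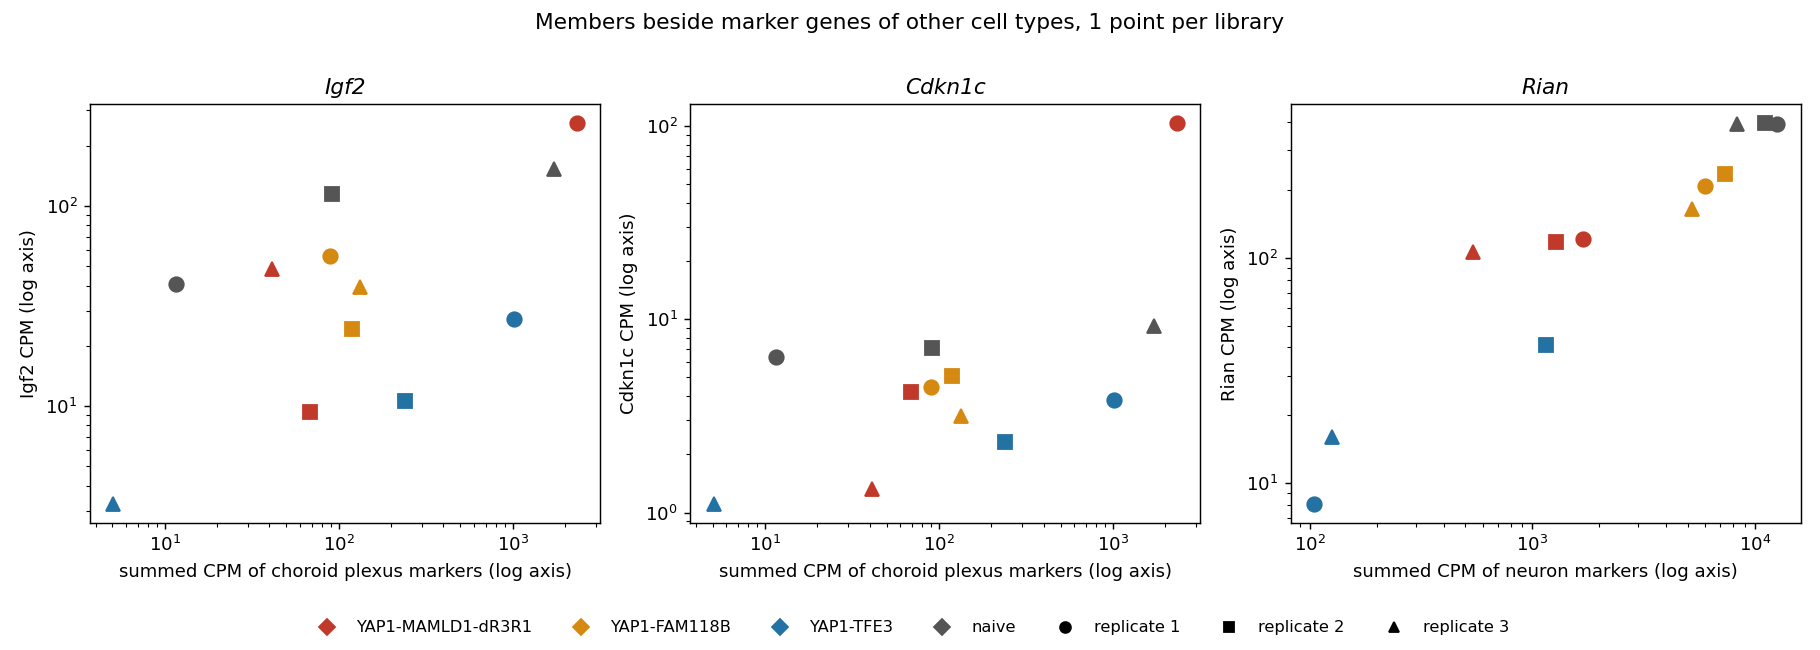
Igf2 and Cdkn1c against the summed CPM of choroid plexus markers and Rian against that of neuron markers, 1 point per library, log axes. YAP1-MAMLD1-dR3R1 replicate 1 was highest in Igf2, Cdkn1c and choroid plexus markers, and YAP1-TFE3 replicates 1 and 3 were lowest in Rian and in neuron markers.

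Dlk1, Meg3 and Rian belong to the Dlk1-Dio3 cluster on chromosome 12. Dlk1 (109452485 to 109463336, plus strand) encodes a membrane protein of the Delta-like family that keeps precursor cells from differentiating. It had 10.9, 48.9 and 115 CPM in YAP1-MAMLD1-dR3R1, 1.93, 10.7 and 0.877 CPM in YAP1-FAM118B, 1.98, 9.62 and 6.27 CPM in YAP1-TFE3 and 58.5, 29.5 and 89.4 CPM in naive. YAP1-FAM118B and YAP1-TFE3 libraries lay below all naive libraries and below all YAP1-MAMLD1-dR3R1 libraries, whose own values spanned those of naive. Dlk1 fell in YAP1-FAM118B (−3.71 ± 1.09, edgeR adjusted p = 0.0285) and in YAP1-TFE3 (−3.31 ± 1.07, edgeR adjusted p = 0.0182), with −0.03 ± 0.97 in YAP1-MAMLD1-dR3R1 (edgeR adjusted p = 0.984). The call in YAP1-FAM118B ended without its replicate 1 or 3 or naive replicate 1 or 3 (0.0598 to 0.105), and that in YAP1-TFE3 without naive replicate 3 (0.0503).

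Meg3 (109540996 to 109571729) and Rian (109603945 to 109661716) are long noncoding RNAs transcribed from the other parental copy of that cluster. Meg3 has been described as a growth suppressor in human tumours, and Rian is a host of small nucleolar RNAs and miRNAs. Rian had 121, 117 and 106 CPM in YAP1-MAMLD1-dR3R1, 209, 235 and 165 in YAP1-FAM118B, 8.10, 40.9 and 16.0 in YAP1-TFE3 and 391, 394 and 391 in naive. The 4 groups did not overlap. Rian fell in YAP1-MAMLD1-dR3R1 and in YAP1-TFE3, with −1.77 ± 0.45 and −4.18 ± 0.50 (edgeR adjusted p of 0.00648 and 5.27e-05). In YAP1-FAM118B the change of −0.95 ± 0.44 missed the threshold although the libraries did not overlap (edgeR adjusted p = 0.13). In a fit of YAP1-FAM118B and naive alone it passed (edgeR adjusted p = 0.00337).

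Meg3 followed the same order of groups with more spread. It had 195, 233 and 81.8 CPM in YAP1-MAMLD1-dR3R1, 292, 394 and 169.7 in YAP1-FAM118B, 14.4, 52.4 and 36.9 in YAP1-TFE3 and 331, 628 and 448 in naive. Its decrease was −3.76 ± 0.58 in YAP1-TFE3 (edgeR adjusted p = 0.000253) and −1.46 ± 0.53 in YAP1-MAMLD1-dR3R1 (edgeR adjusted p = 0.0326), with −0.72 ± 0.52 in YAP1-FAM118B (edgeR adjusted p = 0.315). The YAP1-MAMLD1-dR3R1 call ended without its replicate 1 or 3 or naive replicate 2 or 3 (0.0562 to 0.105), and without YAP1-FAM118B replicate 2 and naive replicate 2 together (0.11). The ratio of Meg3 to Rian reads stayed between 0.770 and 2.30 in all 12 libraries, while the ratio of Dlk1 to Meg3 reads ran from 0.00516 to 0.0273 in YAP1-FAM118B, and from 0.137 to 0.184 in YAP1-TFE3, against 0.0470 to 0.200 in naive. In YAP1-MAMLD1-dR3R1 it was 0.0558, 0.210 and 1.40 in replicates 1, 2 and 3. Dlk1 relative to Meg3 was therefore lower than in any naive library in YAP1-FAM118B, within the naive range in YAP1-TFE3, and above it in 2 of the 3 YAP1-MAMLD1-dR3R1 libraries.

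Other genes of the cluster differed from these 3. Dio3, the deiodinase that inactivates thyroid hormone, had 196, 50.8 and 115 CPM in YAP1-MAMLD1-dR3R1, against 1.48, 3.52 and 2.20 CPM in naive, an increase of 5.65 ± 0.69 (edgeR adjusted p = 9.07e-05). In YAP1-FAM118B it averaged 2.61 ± 1.11 CPM (SD, n = 3; edgeR adjusted p = 0.892), and in YAP1-TFE3 it fell by 3.79 ± 0.79 to 0.165 ± 0.203 CPM (edgeR adjusted p = 0.00175). Dio3 was therefore called higher in one kind of tumour with lower Meg3 and Rian, YAP1-MAMLD1-dR3R1, and lower in the other, YAP1-TFE3. Mirg, a noncoding RNA that hosts miRNAs, fell in YAP1-TFE3, with −2.41 ± 0.54 (edgeR adjusted p = 0.00268), and was not called in YAP1-MAMLD1-dR3R1 or YAP1-FAM118B (edgeR adjusted p of 0.243 and 0.964). Rtl1, a retrotransposon-derived gene whose RefSeq span overlaps Meg3 and Rian, had 0.636, 0.587 and 0.787 CPM in the 3 tumour groups and 3.26 CPM in naive, and was not called (edgeR adjusted p of 0.0729, 0.104 and 0.102).

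Peg3 (chromosome 7, 6703892 to 6730462, minus strand) encodes a zinc finger protein that is abundant in the brain. It had 50.3, 38.9 and 53.8 CPM in YAP1-MAMLD1-dR3R1, 89.9, 167 and 93.7 in YAP1-FAM118B, 8.10, 19.5 and 16.3 in YAP1-TFE3 and 368, 258 and 563 in naive. No library of one group reached into another, and every tumour library was below naive. Peg3 fell, with −3.06 ± 0.41, −1.76 ± 0.39 and −4.76 ± 0.44 in YAP1-MAMLD1-dR3R1 tumours, YAP1-FAM118B tumours and YAP1-TFE3 tumours (edgeR adjusted p of 0.000149, 0.0076 and 1.2e-05). It was the only one of the 10 called lower in all 3, and its neighbours Usp29, a ubiquitin peptidase gene, and Zim1, a zinc finger gene, were lower as well. Zim1 fell in every tumour type, with −3.38 to −3.07 (edgeR adjusted p of 0.000167 to 0.00105). Usp29 fell in YAP1-MAMLD1-dR3R1 and YAP1-TFE3, with −4.12 ± 0.82 and −5.38 ± 0.87 (edgeR adjusted p of 0.00161 and 0.000362) and had −1.92 ± 0.74 in YAP1-FAM118B (edgeR adjusted p = 0.0759). Peg3os, listed as antisense to Peg3, had 7.69, 16.2 and 2.20 CPM in the tumour groups and 56.2 CPM in naive. Whether strand was used in counting is not stated, so reads of Peg3 and Peg3os may not have been told apart.

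By median sum, neuron markers put the groups in the same order as the means of Meg3, Rian and Peg3. Naive came first, followed by YAP1-FAM118B, YAP1-MAMLD1-dR3R1 and YAP1-TFE3. All 10 markers were detected in each group. The edgeR test called 7, 1 and 9 of them lower and none higher in YAP1-MAMLD1-dR3R1 tumours, YAP1-FAM118B tumours and YAP1-TFE3 tumours. Over all genes 28.8%, 8.45% and 30.0% were called lower, so that the count in YAP1-FAM118B was near the background. The markers had median log2 fold changes of −3.40, −0.83 and −4.73. Within YAP1-TFE3, replicate 2 had the highest marker sum, 1149 CPM against 104 and 125 in replicates 1 and 3, and also the highest Rian, Meg3 and Peg3. Within YAP1-MAMLD1-dR3R1 the sum was 1694 CPM in replicate 1, 1279 in replicate 2 and 541 in replicate 3. Rian stayed between 106 and 121 CPM there, Peg3 was 50.3, 38.9 and 53.8 CPM and Meg3 195, 233 and 81.8 CPM. In naive replicates 1, 2 and 3 the sum was 12638, 11143 and 8326 CPM. Beside it Peg3 was 368, 258 and 563 CPM, Meg3 331, 628 and 448 CPM and Rian 391, 394 and 391 CPM. In YAP1-FAM118B replicate 2 had the highest sum, 7335 CPM, and the highest Rian, Meg3 and Peg3. Within groups, Peg3 and Meg3 therefore did not always follow the neuron markers. Hypothalamus markers summed to 120.3, 115 and 377 CPM in naive replicates 1, 2 and 3, the order of Peg3 and Dlk1 there. The sums were 3.03, 31.3 and 12.1 CPM in YAP1-MAMLD1-dR3R1 and 7.72, 6.39 and 32.3 in YAP1-TFE3, orders that neither gene followed. In YAP1-FAM118B they were 10.7, 21.0 and 3.51 CPM, the order of Dlk1 and not of Peg3. The part of neuron or hypothalamus content in the decreases of these genes was not tested.

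Plagl1 (chromosome 10, 13090832 to 13131694, plus strand) encodes a zinc finger transcription factor that can arrest the cell cycle and that regulates other imprinted genes in mouse tissues, H19, Igf2, Cdkn1c and Dlk1 among them. Its level was 503, 312 and 69.1 CPM in YAP1-TFE3, against 23.5, 17.5 and 24.0 CPM in naive. The lowest YAP1-TFE3 library was above every other library of the series. Plagl1 rose there by 3.77 ± 0.73 (edgeR adjusted p = 0.00113). In YAP1-MAMLD1-dR3R1 it had 8.12, 4.59 and 1.46 CPM, a decrease of −2.19 ± 0.70 (edgeR adjusted p = 0.0196) that ended without YAP1-MAMLD1-dR3R1 replicate 2 or 3 (0.0592 and 0.0552). YAP1-FAM118B, with 15.5, 21.2 and 12.1 CPM, overlapped naive (−0.41 ± 0.66, edgeR adjusted p = 0.652).

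Peg10 (chromosome 6, 4747306 to 4760517, plus strand) is a gene derived from a retrotransposon, encodes Gag-like and Pol-like proteins and is needed for the placenta. It had 1404, 435 and 419 CPM in YAP1-TFE3, 151, 171 and 162 in YAP1-FAM118B and 25.8, 26.9 and 39.9 in YAP1-MAMLD1-dR3R1, against 109.6, 80.6 and 176 in naive. YAP1-TFE3 was above and YAP1-MAMLD1-dR3R1 below all naive libraries, and YAP1-FAM118B lay inside the naive range. Peg10 rose by 2.62 ± 0.49 in YAP1-TFE3 (edgeR adjusted p = 0.000823) and fell by 1.99 ± 0.47 in YAP1-MAMLD1-dR3R1 (edgeR adjusted p = 0.00467), with 0.40 ± 0.46 in YAP1-FAM118B (edgeR adjusted p = 0.527). The highest YAP1-TFE3 library, replicate 1, had 3.35 times the CPM of the lowest, and the increase was 1.64 without it, still called.

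Sgce, which encodes a sarcoglycan, starts next to Peg10 on the same paternal copy and did not follow it in YAP1-MAMLD1-dR3R1. Sgce averaged 75.7 ± 32.7 CPM in YAP1-MAMLD1-dR3R1, 44.3 ± 7.12 CPM in YAP1-FAM118B and 104 ± 15.7 CPM in YAP1-TFE3, against 26.7 ± 1.39 in naive (SD, n = 3 each). It rose by 1.50 ± 0.28 in YAP1-MAMLD1-dR3R1, where Peg10 fell, and by 1.96 ± 0.28 in YAP1-TFE3 (edgeR adjusted p of 0.00109 and 0.000171), with 0.73 ± 0.27 in YAP1-FAM118B (edgeR adjusted p = 0.07). The ratio of Peg10 to Sgce reads was 0.364 to 0.586 in YAP1-MAMLD1-dR3R1, 3.10 to 4.45 in YAP1-FAM118B and 4.47 to 11.5 in YAP1-TFE3, against 2.94 to 6.41 in naive. Of the other neighbours, Asb4, a gene for an ankyrin repeat protein, fell in all 3 tumour types, to 1.84 to 2.46 CPM, against 8.97 CPM in naive (edgeR adjusted p of 0.0121 to 0.0302). Ppp1r9a, a neuronal actin-binding protein gene, fell in YAP1-MAMLD1-dR3R1 and YAP1-TFE3, with −2.51 ± 0.37 and −3.75 ± 0.39 (edgeR adjusted p of 0.000282 and 2.35e-05), and had −0.65 ± 0.35 in YAP1-FAM118B (edgeR adjusted p = 0.187).

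Cdkn1c (chromosome 7, 143458339 to 143461059, minus strand) encodes p57, an inhibitor of cyclin-dependent kinases that stops cells in G1. It had 103, 4.21 and 1.33 CPM in YAP1-MAMLD1-dR3R1, 4.44, 5.08 and 3.14 in YAP1-FAM118B and 3.81, 2.31 and 1.11 in YAP1-TFE3, against 6.40, 7.12 and 9.24 in naive. YAP1-MAMLD1-dR3R1 replicate 1 was above all other libraries, and the other 8 tumour libraries were all below naive. None of the changes against naive was called, with 2.25 ± 1.20, −0.85 ± 1.17 and −1.65 ± 1.21 in the order above (edgeR adjusted p of 0.125, 0.601 and 0.24). The fit shares one estimate of the spread over all groups. Without that library Cdkn1c passed as lower in YAP1-TFE3 (edgeR adjusted p = 0.0176), and its value in YAP1-MAMLD1-dR3R1 was −1.45 (edgeR adjusted p = 0.0579). Without YAP1-MAMLD1-dR3R1 replicate 3 it passed as higher there (edgeR adjusted p = 0.0319). Fits of YAP1-FAM118B or YAP1-TFE3 with naive alone also called it lower (edgeR adjusted p of 0.0378 and 0.0152). The library with 103 CPM was also the one with the highest choroid plexus marker sum, and choroid plexus is a known site of Cdkn1c expression; its part was not tested.

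Neighbours of Cdkn1c were low. Slc22a18, a transporter gene, averaged 2.03, 1.23 and 1.06 CPM in YAP1-MAMLD1-dR3R1 tumours, YAP1-FAM118B tumours and YAP1-TFE3 tumours, against 0.322 CPM in naive, and rose in all 3 (edgeR adjusted p of 0.00251, 0.0271 and 0.0188). With 7, 12 and 4 reads in the naive libraries it passed the filter, like H19, through its level in the tumours. Kcnq1ot1, the long noncoding RNA that silences the cluster on the paternal copy, fell in YAP1-FAM118B (−1.18 ± 0.34) and in YAP1-TFE3 (−0.82 ± 0.34), with edgeR adjusted p of 0.0259 and 0.0497, and the like value of −0.83 ± 0.34 in YAP1-MAMLD1-dR3R1 was just short of the threshold (edgeR adjusted p = 0.0506). Ascl2 was at or below 0.575 CPM in all libraries, and Phlda2 did not pass the filter.

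Mest (chromosome 6, 30733506 to 30748466, plus strand) encodes an enzyme of the alpha/beta hydrolase fold that is linked to growth of mesoderm and fat. It had 71.7, 22.2 and 48.0 CPM in YAP1-MAMLD1-dR3R1, 139, 190.3 and 143 in YAP1-FAM118B and 148, 67.1 and 10.4 in YAP1-TFE3, against 45.2, 40.0 and 41.3 in naive. All YAP1-FAM118B libraries were above all naive and all YAP1-MAMLD1-dR3R1 libraries, and the YAP1-TFE3 libraries lay on both sides of naive. None of the changes was called: 0.17 ± 0.70, 1.90 ± 0.72 and 0.83 ± 0.70 had edgeR adjusted p of 0.851, 0.0731 and 0.309. YAP1-TFE3 replicate 3, the lowest library of the series, was also the one with the least Igf2, Cdkn1c, Plagl1 and H19 of its group. Without it the Mest increase in YAP1-FAM118B passed (edgeR adjusted p = 0.00555), as it did in DESeq2 (adjusted p = 0.0303). The increase in YAP1-TFE3 passed as well without that library, at 1.18 (edgeR adjusted p = 0.0346).

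The tumour types were then compared with each other. YAP1-TFE3 against YAP1-MAMLD1-dR3R1 gave 7 calls among the 10 genes, 2 higher and 5 lower, where 39.5% of all genes were called, 22.6% higher and 16.9% lower. YAP1-TFE3 against YAP1-FAM118B gave 6, 2 higher and 4 lower, against 51.7% of all genes, 28.0% higher and 23.7% lower. YAP1-FAM118B against YAP1-MAMLD1-dR3R1 gave 4, 3 higher and 1 lower, against 26.2% of all genes, 12.7% higher and 13.5% lower. Plagl1 and Peg10 were higher in YAP1-TFE3 than in each of the other fusions, and Meg3, Rian and Peg3 were lower. Plagl1 exceeded YAP1-MAMLD1-dR3R1 by 5.96 ± 0.82 and YAP1-FAM118B by 4.18 ± 0.75 (edgeR adjusted p of 0.000421 and 0.00138). Peg10 exceeded them by 4.61 ± 0.53 and 2.22 ± 0.48 (edgeR adjusted p of 0.000158 and 0.00361).

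Rian in YAP1-TFE3 differed by −2.40 ± 0.46 from YAP1-MAMLD1-dR3R1 and by −3.23 ± 0.48 from YAP1-FAM118B (edgeR adjusted p of 0.00276 and 0.000493). Meg3 differed by −2.30 ± 0.54 and −3.04 ± 0.56 (edgeR adjusted p of 0.00787 and 0.00157), and Peg3 by −1.70 ± 0.39 and −3.00 ± 0.41 (edgeR adjusted p of 0.00688 and 0.000312). Each of these calls held in all 21 alternatives run. Peg10 was also higher in YAP1-FAM118B than in YAP1-MAMLD1-dR3R1, by 2.38 ± 0.48 (edgeR adjusted p = 0.0106), in all 21 alternatives. Peg3 was higher there by 1.30 ± 0.38 (edgeR adjusted p = 0.035), a call that ended without any 1 of the YAP1-MAMLD1-dR3R1 libraries, without YAP1-FAM118B replicate 1 or 2 (0.057 to 0.121), or without YAP1-FAM118B replicate 2 and naive replicate 2 together (0.117).

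Dlk1 was lower in YAP1-FAM118B and in YAP1-TFE3 than in YAP1-MAMLD1-dR3R1, by −3.68 ± 1.09 and −3.28 ± 1.07 (edgeR adjusted p of 0.0348 and 0.034). The first call ended without YAP1-MAMLD1-dR3R1 replicate 2 or 3, YAP1-FAM118B replicate 1 or 3 or naive replicate 1, and in fits of the 2 groups or of the tumours alone (0.0548 to 0.119). The second ended without YAP1-MAMLD1-dR3R1 replicate 2 or 3 or YAP1-TFE3 replicate 1 or 3, and in the same smaller fits (0.0527 to 0.0919). Cdkn1c was called lower in YAP1-TFE3 than in YAP1-MAMLD1-dR3R1 (−3.91 ± 1.30, edgeR adjusted p = 0.0371), although the libraries overlapped. That difference was −0.20 without YAP1-MAMLD1-dR3R1 replicate 1 (edgeR adjusted p = 0.812), and the call held in 10 of the 21 alternatives. It also ended without naive replicate 2 or 3, YAP1-FAM118B replicate 1 or any 1 of the YAP1-TFE3 libraries (0.0513 to 0.0891), and with YAP1-FAM118B replicate 2 and naive replicate 2 left out together (0.0692).

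**Figure D4:**
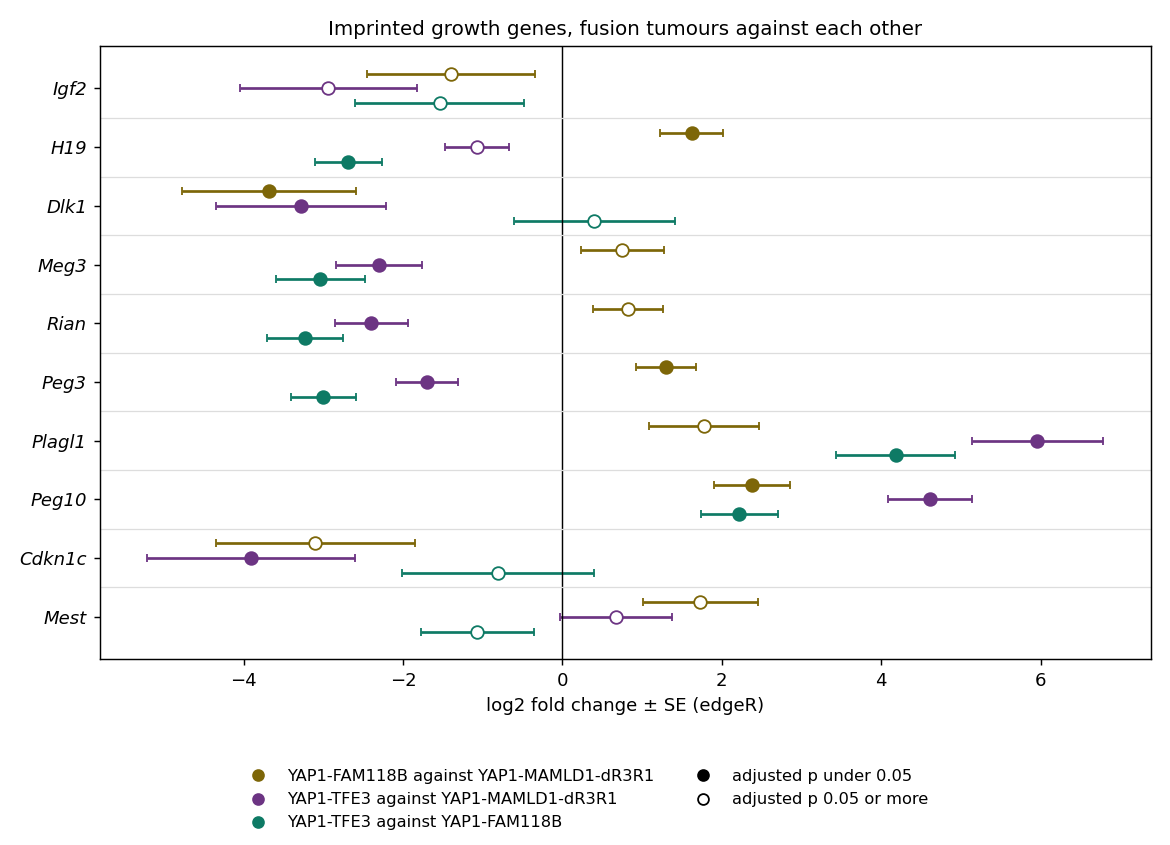
Log2 fold change between tumour types (horizontal, ± SE from edgeR, 3 libraries per group) of each gene (vertical); filled points had an adjusted p under 0.05. Plagl1 and Peg10 lie to the right of 0 in both comparisons of YAP1-TFE3, and Meg3, Rian and Peg3 to the left.

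Levels were compared between the genes only per kilobase of their annotated exons (GENCODE M21). In naive cortex Peg3 had the highest mean with 45.6 ± 17.8 CPM per kb (SD, n = 3), followed by Meg3 (29.9 ± 9.55) and Rian (27.3 ± 0.122). Peg3 and Meg3 did not differ beyond their spread, nor did Meg3 and Rian. H19 came last with 0.141 ± 0.0365. In YAP1-TFE3 tumours Peg10 led with 113 ± 84.6 CPM per kb, Plagl1 followed with 54.7 ± 40.4 and Mest with 27.0 ± 24.9, and the other 7 genes were at 2.62 or less. Mest led in YAP1-FAM118B with 56.6 ± 10.4, above Peg10 with 24.2 ± 1.51, and Dlk1 came last with 0.944 ± 1.13. In YAP1-MAMLD1-dR3R1 Igf2 (20.0 ± 25.5), Cdkn1c (18.6 ± 29.8) and Mest (17.0 ± 8.93) stood first, with spreads as large as their differences, and Plagl1 was last with 0.878 ± 0.618.

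The wider set of imprinted genes was mostly lower in the tumours. Of 30 other imprinted genes 29 were tested, and 4 were called higher and 18 lower in YAP1-MAMLD1-dR3R1, 2 higher and 11 lower in YAP1-FAM118B and 3 higher and 20 lower in YAP1-TFE3. Their median log2 fold changes were −1.33, −0.83 and −2.41, beside medians of 0.06, −0.05 and 0.23 over all genes, of which 28.8%, 8.45% and 30.0% were called lower. Igf2r is the receptor that takes up IGF2 and lysosomal enzymes, and is expressed from the maternal copy in most mouse tissues. In YAP1-TFE3 Igf2r rose to 842, 898 and 372 CPM, against 45.2 ± 4.91 CPM in naive (SD, n = 3). The log2 fold change was 3.96 ± 0.43 (edgeR adjusted p = 2.84e-05). Igf2r was therefore higher in the tumours in which its ligand Igf2 was lowest. In YAP1-MAMLD1-dR3R1 and YAP1-FAM118B Igf2r did not pass (0.38 ± 0.38 and 0.99 ± 0.38, edgeR adjusted p of 0.406 and 0.078).

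Besides Usp29 and Zim1, the genes of this list among the 3 largest decreases by the naming rule in a tumour type were Zdbf2, Rasgrf1, Kcnk9, Magel2 and Nnat. Zdbf2, a zinc finger gene, fell to 2.57 CPM in YAP1-MAMLD1-dR3R1 and to 1.88 CPM in YAP1-TFE3, against 63.9 CPM in naive (edgeR adjusted p of 0.00188 and 0.000984), and was at 16.0 CPM in YAP1-FAM118B (edgeR adjusted p = 0.0959). Rasgrf1, an exchange factor for Ras, fell in YAP1-MAMLD1-dR3R1 to 43.3 CPM and in YAP1-TFE3 to 14.8 CPM, against 396 CPM in naive (edgeR adjusted p of 0.0163 and 0.00248), with 153 CPM in YAP1-FAM118B (edgeR adjusted p = 0.278). Kcnk9, a potassium channel gene, fell in YAP1-MAMLD1-dR3R1 and YAP1-TFE3, with −4.74 ± 1.09 and −4.50 ± 1.08 (edgeR adjusted p of 0.00384 and 0.00382), and had −1.11 ± 0.92 in YAP1-FAM118B (edgeR adjusted p = 0.38). Magel2, a MAGE family gene of the hypothalamus, fell in all 3 tumour types, with −4.89 ± 1.37, −3.94 ± 1.30 and −3.90 ± 1.29 in the order of the counts above (edgeR adjusted p of 0.0108, 0.0438 and 0.0205). Nnat, a membrane protein gene of neurons, fell in YAP1-FAM118B and YAP1-TFE3, with −2.30 ± 0.78 and −1.98 ± 0.77 (edgeR adjusted p of 0.0494 and 0.0406), and had −1.33 ± 0.76 in YAP1-MAMLD1-dR3R1 (edgeR adjusted p = 0.147). The hypothalamus and neuron markers given above were lower in the same tumours, and their part was not tested.

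**Figure D5:**
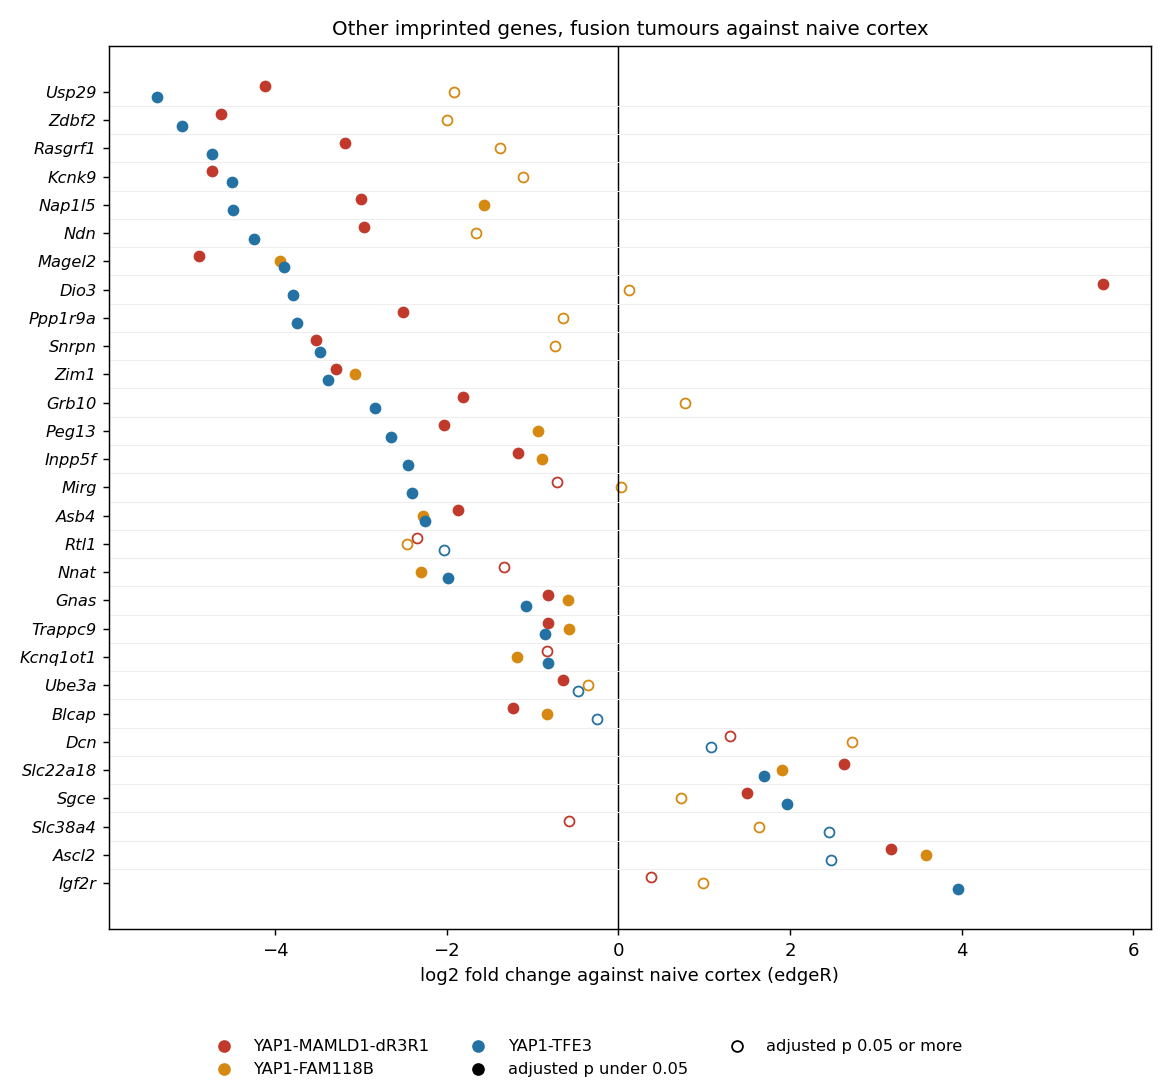
Log2 fold change against naive cortex (horizontal, edgeR) of 29 other imprinted genes (vertical, in the order of their value in YAP1-TFE3), 1 point per tumour type; filled points had an adjusted p under 0.05. Most points lie left of 0, and Dio3 stands at 5.65 in YAP1-MAMLD1-dR3R1 and at −3.79 in YAP1-TFE3.

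Receptors, partners and relatives of the 10 genes (20 genes) rose more often than they fell. The edgeR test called 10 higher and 1 lower in YAP1-MAMLD1-dR3R1, 9 higher and none lower in YAP1-FAM118B and 10 higher and 1 lower in YAP1-TFE3, with medians of 1.43, 0.83 and 1.16. Over all genes 34.4%, 21.3% and 40.6% were called higher and 28.8%, 8.45% and 30.0% lower. The count called higher in YAP1-TFE3 was near the background. In either direction 11, 9 and 11 of the 20 were called, against 63.2%, 29.7% and 70.6% of all genes. Cdk2, a kinase that p57 inhibits, rose in all 3, to 29.2, 18.6 and 64.7 CPM, against 1.88 CPM in naive (edgeR adjusted p of 5.78e-06, 3.04e-05 and 7.63e-07). Cdkn1a, the gene of the related inhibitor p21, rose to 66.1, 73.4 and 153 CPM, against 13.7 CPM in naive (edgeR adjusted p of 0.000292, 0.000579 and 2.02e-05), while Cdkn1c was not called. Dividing cell genes rose with them, with a sum over 10 genes of 274 to 1466 CPM in the tumour libraries and 11.6 to 14.5 CPM in naive.

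Within that list, Igf1, the second ligand of the IGF1 receptor, rose in YAP1-MAMLD1-dR3R1 to 89.1 CPM, against 13.2 CPM in naive (2.76 ± 0.60, edgeR adjusted p = 0.00289), and averaged 29.3 CPM in YAP1-FAM118B and 29.4 CPM in YAP1-TFE3 (edgeR adjusted p of 0.156 and 0.0954). Macrophage and microglia markers (10 genes) summed to 5746 to 8648 CPM in YAP1-MAMLD1-dR3R1 and 206 to 268 in naive. The sums were 1813 to 2100.3 CPM in YAP1-FAM118B and 1372 to 4256 in YAP1-TFE3. The part of these cells in Igf1 was not tested. Igf1r, the receptor of both ligands, was called in no tumour type (0.53 ± 0.33, 0.77 ± 0.34 and 0.55 ± 0.33, edgeR adjusted p of 0.19, 0.109 and 0.167). Insr, the insulin receptor, rose in YAP1-TFE3 to 146 CPM, against 64.6 CPM in naive (edgeR adjusted p = 0.000124), and was not called in the others (edgeR adjusted p of 0.767 and 0.389). Irs1, an adaptor of both receptors, rose in YAP1-FAM118B to 79.5 CPM, against 29.9 CPM in naive (edgeR adjusted p = 0.0425), with 64.2 and 61.9 CPM in YAP1-MAMLD1-dR3R1 and YAP1-TFE3 (edgeR adjusted p of 0.0563 and 0.0611). Igf2bp2, which binds Igf2 mRNA, rose to 3.46 CPM in YAP1-MAMLD1-dR3R1, 26.7 CPM in YAP1-FAM118B and 17.0 CPM in YAP1-TFE3, against 0.533 CPM in naive (edgeR adjusted p of 0.00659, 0.000428 and 0.000196). With 20, 6 and 12 reads in the naive libraries, Igf2bp2 also passed the filter through its level in the tumours. Ccne1, cyclin E1, fell in YAP1-MAMLD1-dR3R1, with −0.99 ± 0.23 (edgeR adjusted p = 0.0037).

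A further list held 14 factors that add, keep or remove DNA methylation or act on imprints, of which 13 were tested. The edgeR test called 8 higher and 1 lower in YAP1-MAMLD1-dR3R1, 4 and 1 in YAP1-FAM118B and 8 and 3 in YAP1-TFE3. The shares of all genes were 34.4% higher and 28.8% lower, 21.3% and 8.45%, and 40.6% and 30.0%, and the counts in YAP1-FAM118B were near them. Uhrf1, which recruits the maintenance methyltransferase to replicated DNA, rose to 45.4, 25.2 and 63.7 CPM, against 1.40 CPM in naive (edgeR adjusted p of 4.63e-06, 2.18e-05 and 1.01e-06). Ezh2, the methyltransferase of the Polycomb complex PRC2, rose to 30.5, 18.6 and 57.5 CPM, against 3.86 CPM (edgeR adjusted p of 8.77e-07, 7.67e-06 and 1e-07), and Eed, a subunit of the same complex, rose by 1.31 ± 0.16 in YAP1-MAMLD1-dR3R1, by 0.76 ± 0.16 in YAP1-FAM118B and by 1.30 ± 0.16 in YAP1-TFE3 (edgeR adjusted p of 8.67e-05, 0.00533 and 5.78e-05). Zfp57, a zinc finger protein that protects methylated imprints in mouse embryos, rose in YAP1-TFE3 to 22.5 CPM, against 3.55 CPM in naive (2.66 ± 0.40, edgeR adjusted p = 0.000239). Tet1, which oxidises methylated cytosine, fell in all 3, with −1.39 ± 0.33, −1.07 ± 0.33 and −3.68 ± 0.37 (edgeR adjusted p of 0.0046, 0.0336 and 1.79e-05). In YAP1-TFE3 Tet2 and Tet3 fell as well, with −1.02 ± 0.17 and −0.94 ± 0.18 (edgeR adjusted p of 0.000369 and 0.000857).

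Genes with the most similar profile were found by the root mean square difference of centred log2 CPM over the 12 libraries, among 15050 genes with a mean of at least 1 CPM. Rian was nearest to Luzp2 (0.171) and Cdh10 (0.192), and Meg3 to Ptk2b (0.295), with Rian as its nearest among the 10 (0.465). Peg3 was nearest to its antisense row Peg3os (0.230). H19 was nearest to Kctd11 (0.436) and Adamts9 (0.589). Igf2 was nearest to Slc13a4 (0.864) and Enpp2 (0.917), and Cdkn1c to Lepr (0.783), all with larger differences. For Plagl1 the nearest were Tchh (0.561) and Scx (0.581), for Peg10 F630042J09Rik (0.627) and Vsig8 (0.651), for Mest Pdgfc (0.617) and for Dlk1 Sfrp5 (1.04). Plagl1 and Peg10 were nearest to each other among the 10 (1.05), as were Igf2 and Cdkn1c (1.19). The libraries fall into 4 groups that shift many genes, so these values describe the profiles and carry no test.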

How the data were processed

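Gene counts of 12 libraries were used as deposited by the authors. Per the submitters' processing notes they were made with HTSeq on mm10, and the version, the aligner, the gene annotation and the strand setting are not named there. The rows were matched by symbol, and 23204 of 24421 symbols were found in RefSeq GRCm38.p6. In R 4.3.3 with edgeR 4.0.16 (limma 3.58.1), low genes were dropped (filterByExpr, minimum count 10), libraries were scaled by TMM and a quasi-likelihood model with all 4 groups was fitted. Benjamini-Hochberg adjustment ran over all 16364 genes, with a threshold of 0.05. Fold changes are on the log2 scale with SE, and CPM use the scaled totals. DESeq2 1.42.0, other scalings and filters, smaller fits, a replicate block and left-out libraries served as alternatives. The 10 genes, the gene lists and the naming rule were chosen with earlier results of these data known. From each list the text names up to 3 called genes per direction and tumour type with the largest change, no overlap between the groups' libraries and 5 CPM or more on average in 1 group, plus neighbours of the 10 genes. The procedure was tested on counts simulated from the naive means, with the same dispersion for every gene and few genes changed, in a single group. The libraries here vary more and differ in many genes, so that run does not measure the error of the calls given.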

Additional observations from a re-analysis of the deposited data

Results flagged for a closer look

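Plagl1 and Peg10 moved in opposite directions in 2 kinds of tumour, and the difference itself was tested. Plagl1 had a log2 fold change against naive cortex of 3.77 in YAP1-TFE3 and −2.19 in YAP1-MAMLD1-dR3R1, and the direct comparison of YAP1-TFE3 with YAP1-MAMLD1-dR3R1 gave 5.96 ± 0.82 (edgeR adjusted p = 0.000421). Peg10 had 2.62 in YAP1-TFE3 and −1.99 in YAP1-MAMLD1-dR3R1, and the direct comparison gave 4.61 ± 0.53 (edgeR adjusted p = 0.000158). The libraries of the 2 tumour types did not overlap for either gene.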

How the results depend on the processing

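Over 20 or 21 alternatives per comparison, none of the values of the 10 genes that was called reversed. The number of the 10 genes called in YAP1-FAM118B against naive was 6 in a fit of those groups alone, against 3 in the main analysis. In YAP1-FAM118B against YAP1-MAMLD1-dR3R1 DESeq2 called 7 of the 10, against 4. That comparison was the least stable over all genes, with 4293 called, 2537 in a fit of tumour libraries alone and 1010 without YAP1-FAM118B replicate 2 and naive replicate 2. Leaving out 1 library gave 1666 to 5069 genes and 1 to 6 of the 10, with 1666 without YAP1-MAMLD1-dR3R1 replicate 2, 1798 without its replicate 3, 1753 without YAP1-FAM118B replicate 1 and 1932 without its replicate 2. For YAP1-FAM118B against naive it gave 2979 to 5475 genes (4861 in the main analysis), with 2979 without YAP1-FAM118B replicate 3 and 3106 without its replicate 1, and its lower calls moved more, to 356 and 405 without these libraries, 415, 740 and 726 without naive replicate 1, 2 or 3 and 829 without YAP1-MAMLD1-dR3R1 replicate 2, against 1382. Scaling by library size alone moved the median of all genes in YAP1-TFE3 against naive by −0.192, and left 2803 higher and 3866 lower calls in YAP1-TFE3 against YAP1-MAMLD1-dR3R1 (3695 and 2761 with TMM) and 3386 and 4812 against YAP1-FAM118B (4582 and 3878). DESeq2 called 3798 genes higher and 2830 lower in YAP1-FAM118B against naive (3479 and 1382 in edgeR). Whether replicate numbers pair the samples is not stated. Correlations of same-numbered deviations ran from −0.111 to 0.324, and 4 of 18 exceeded 0.1, all of them between tumour groups. Such correlations cannot decide whether samples were paired. With a replicate block, Cdkn1c in YAP1-TFE3 against YAP1-MAMLD1-dR3R1 was no longer called (edgeR adjusted p = 0.103), Plagl1 in YAP1-FAM118B against YAP1-MAMLD1-dR3R1 was called (0.0405), and 4194 genes were called between YAP1-FAM118B and YAP1-MAMLD1-dR3R1. The causes were not tested.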
